A study of Homo sapiens with 12 samples.

Results

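The steady state of CUTLL1 cells under solvent was described from the 3 libraries labelled DMSO at 12 h, out of 12 libraries in the series. CUTLL1 is a human T-cell acute lymphoblastic leukaemia (T-ALL) line in which a chromosomal translocation joins NOTCH1 to the T-cell receptor beta locus, so that truncated, active NOTCH1 is made. The libraries were chosen by their label alone, and every one of the 62069 gene identifiers in the table was read in them. The other 9 libraries came from the same line after 12 h with 1 µM Compound E, a gamma-secretase inhibitor (GSI), after 48 h with DMSO and after 48 h with GSI, with 3 libraries in each group. All 4 groups shared the medium (RPMI with fetal bovine serum), the seeding density and the preparation, which was total RNA followed by poly-A selection. The line is a single leukaemia, and the labels spell it CUTLL1 in the sample names and CUTTL1 elsewhere. They do not say whether replicates were separate cultures, so the spreads and p-values below measure variation between libraries, which may be technical.

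Developing T cells pass through the thymus in an order read from their transcripts. Early cells rearrange the beta chain of the T-cell receptor with the RAG recombinase and display it with the surrogate chain encoded by PTCRA, and cortical cells then carry CD4, CD8 and CD1 proteins together before choosing a lineage. NOTCH1 drives entry into the T lineage, and a T-ALL is usually assigned to a class by which transcription factor oncogene it expresses, such as TAL1, LMO2, TLX1, TLX3, NKX2-1 or a HOXA gene.

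The deposited values are read counts scaled for the depth of each library, called normalised read counts here. In the DMSO 12 h libraries 1 read was worth 0.885, 0.999 and 0.884, and their depths were 115590203, 109616415 and 122490751 reads, against 73939612 to 160702764 in the other 9. Between 26284 and 27388 identifiers were above 0 in each. Mitochondrial genes took 3.14% to 3.75% of the reads and genes of cytosolic ribosomal proteins 4.83% to 5.08%, ranges that overlapped those of the other libraries. A gene was called present at a mean of at least 100 over the 3 libraries and absent at a mean under 1. A gene with 0 reads in all 3 could still have a mean of up to 0.923, the value of 3 reads over the group, from counting error alone. The labels of 2 other groups went against a NOTCH1 target. NRARP, a NOTCH1 target and thus a gene that a GSI is known to lower, had a mean of 21929.5 in the libraries labelled GSI 12 h and 3030.0 in those labelled DMSO 48 h, so both groups are named by their labels only. Errors below are SDs over the 3 libraries (n = 3), and levels are compared between genes only per kilobase of exon.

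By these thresholds 12628 identifiers (20.3%) were present, 12044 (19.4%) lay between and 37397 (60.3%) were absent, of which 31431 were listed at 0 in all 3 libraries. Of 19266 protein-coding genes, 10923 (56.7%) were present, 3888 (20.2%) lay between and 4455 (23.1%) were absent. The percentages over protein-coding genes are the background for the lists below, which named 330 genes of T-cell biology, leukaemia and other lineages. Of the 329 that were found, 201 were present, 74 lay between and 54 were absent. Genes just inside the upper threshold were CCR6 at 100.2, ID2 at 104 and DLL1 at 104, and those just outside were IL21R at 91.9 and KLRB1 at 91.4. At the lower threshold TLX2 and CD79B, each at 0.961, fell inside, while PSEN2 and IL6R, each at 1.18, did not.

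**Figure D1:**
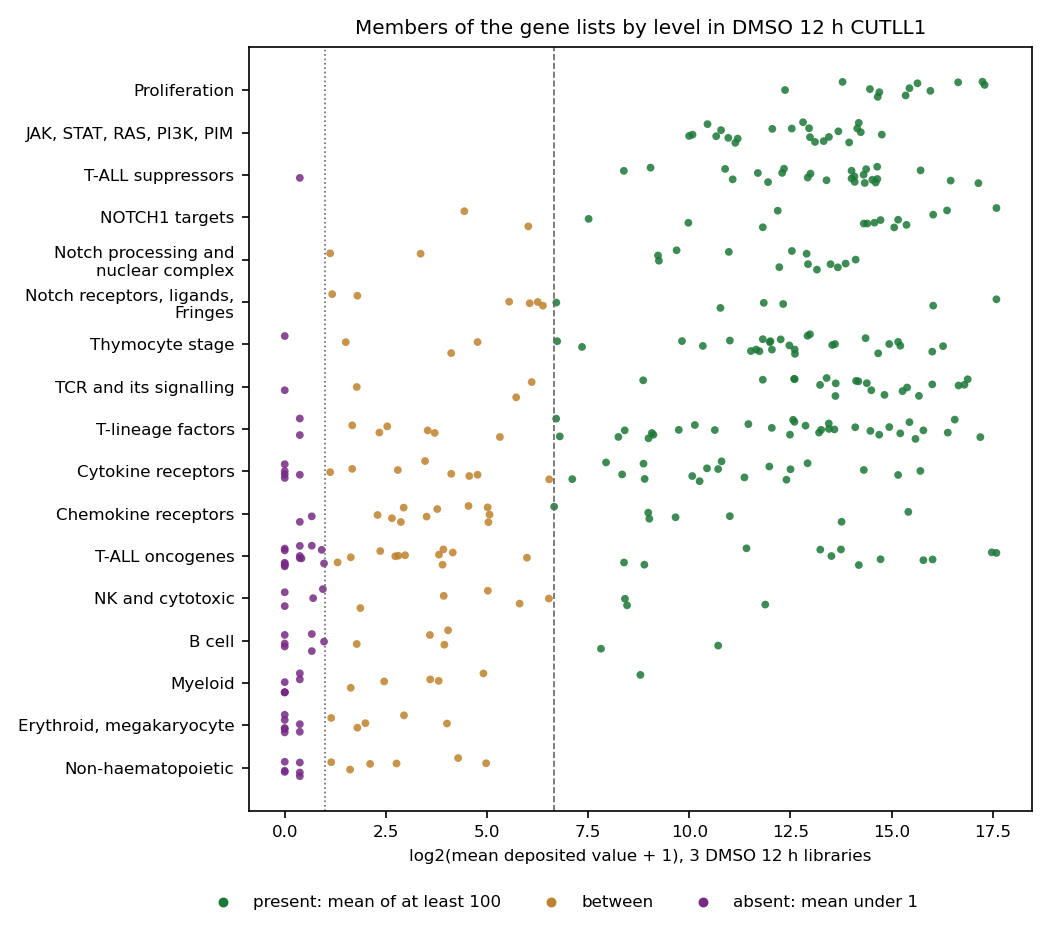
Mean level of each list member over the 3 DMSO 12 h libraries, as log2(mean deposited value + 1), with 1 point per gene and 1 line per list. The dashed line marks a mean of 100 and the dotted line a mean of 1. All 12 proliferation genes and all 22 genes of JAK, STAT, RAS, PI3K and PIM signalling lie right of the dashed line, and none of the 12 erythroid or 12 non-haematopoietic markers does.

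Promoters of present genes held more CpG than those of absent genes, while those of present T-cell receptor signalling and thymocyte stage genes had low medians. The dinucleotide CpG is the site of DNA methylation in mammals, and promoters of broadly expressed genes are typically rich in it. RefSeq promoters of 300 bases around the start site, most of them upstream (build GRCh38.p14), were matched to 15004 protein-coding genes. The median promoter of a present gene held 26 CpG (n = 9011), against 15 for genes between (n = 2833) and 7 for absent genes (n = 3160). A count of at least 15 was found in 83.7% of the present genes and 33.8% of the absent ones. Present genes of T-cell receptor signalling with a promoter in the table (13) had a median of 6 CpG, and present thymocyte stage genes (18) a median of 4, below the median of absent genes. At least 15 CpG were held by 2 of the 13 (15.4%) and by 7 of the 18 (38.9%). The thymocyte stage list was thus split, with a share above the 33.8% of absent genes. Present T-lineage factors (27) had a median of 20, and 70.4% of them held at least 15. Absent T-ALL oncogenes (9 with a promoter) had a median of 18. These are descriptions of the letters in the window, and no methylation was measured. The following promoters, with CpG in capitals, were picked as exceptions to the trend over all genes. Present genes with few CpG come first, then absent genes with at least 15. CD3D (chr11:118342656-118342955, minus strand, 5 CpG), a signalling chain of the T-cell receptor, and CD1E (chr1:158353644-158353943, plus strand, 4 CpG), a CD1 family protein of cortical thymocytes, were both present, at percentiles 99.9 and 98.6 of protein-coding genes per kilobase. CEBPA (chr19:33302485-33302784, minus strand, 50 CpG), the myeloid master factor, and TLX3 (chr5:171308998-171309297, plus strand, 17 CpG), a homeobox oncogene of T-ALL, were listed at 0 in all 3 libraries. CEBPA shares 43.4% of its annotated exon bases with 2 other genes, so its value is uncertain without stated strand.
CD3D: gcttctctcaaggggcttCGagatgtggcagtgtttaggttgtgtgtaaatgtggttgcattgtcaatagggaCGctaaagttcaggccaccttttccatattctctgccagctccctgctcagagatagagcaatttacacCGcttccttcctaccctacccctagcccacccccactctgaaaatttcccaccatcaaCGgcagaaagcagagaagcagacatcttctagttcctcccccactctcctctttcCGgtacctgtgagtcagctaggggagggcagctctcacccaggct
CD1E: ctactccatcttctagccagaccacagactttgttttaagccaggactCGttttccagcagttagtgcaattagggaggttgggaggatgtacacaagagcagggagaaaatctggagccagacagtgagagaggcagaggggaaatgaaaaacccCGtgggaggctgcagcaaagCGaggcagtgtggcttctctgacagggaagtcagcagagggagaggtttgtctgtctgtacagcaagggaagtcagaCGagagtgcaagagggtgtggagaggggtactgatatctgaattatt
CEBPA: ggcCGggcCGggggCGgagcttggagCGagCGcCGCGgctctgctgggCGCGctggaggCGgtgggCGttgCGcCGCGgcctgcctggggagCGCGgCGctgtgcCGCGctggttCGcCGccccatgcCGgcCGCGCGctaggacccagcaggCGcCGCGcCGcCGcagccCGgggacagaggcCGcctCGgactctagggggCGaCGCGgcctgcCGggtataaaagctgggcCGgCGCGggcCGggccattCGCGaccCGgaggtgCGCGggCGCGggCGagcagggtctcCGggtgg
TLX3: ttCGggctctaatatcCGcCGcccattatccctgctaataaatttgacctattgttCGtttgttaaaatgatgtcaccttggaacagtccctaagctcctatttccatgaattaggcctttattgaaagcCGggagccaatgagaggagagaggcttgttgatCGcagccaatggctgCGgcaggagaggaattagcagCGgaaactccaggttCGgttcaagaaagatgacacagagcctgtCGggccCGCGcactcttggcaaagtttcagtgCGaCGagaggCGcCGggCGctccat

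**Figure D2:**
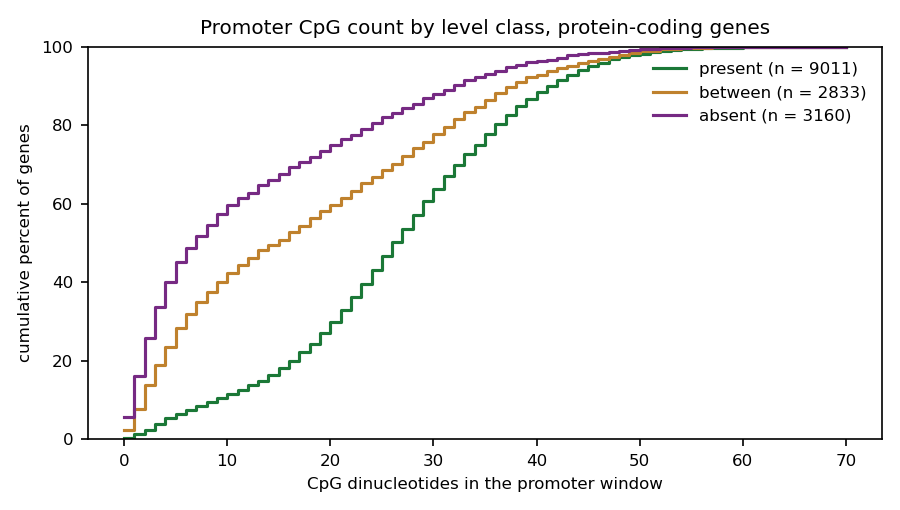
Cumulative percent of protein-coding genes (vertical axis) by the number of CpG dinucleotides in the 300-base promoter window (horizontal axis), for genes present (n = 9011), between (n = 2833) and absent (n = 3160) in DMSO 12 h. The curve of present genes rises latest, with a median of 26 against 15 and 7.

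The most abundant transcripts by value were those of protein synthesis, the respiratory chain, chaperones and the cytoskeleton. EEF1A1, the elongation factor that brings tRNA to the ribosome, led with 1126065, 1101783 and 1140265 recovered reads, 0.969% of all reads. MT-CO1, a mitochondrially encoded subunit of cytochrome oxidase, followed with normalised counts of 547538, 600121 and 695738, and HSP90AA1, a cytosolic chaperone, at 478544, 708888 and 619061. The next 12 were GAPDH, MT-CO3, MT-CO2, ACTB, MT-ND4, TUBB, HSPA8, PTMA, TMSB4X, HNRNPA2B1, HMGB1 and PPIA, with means from 578065 down to 277552. The 10 highest genes took 4.99% to 5.76% of the reads in each library. For all 15 the range of the DMSO 12 h libraries overlapped that of the other 9.

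Per kilobase of exon, 10 of the first 15 were mitochondrial and 2 came from the rearranged T-cell receptor beta gene. MT-CO2 had the highest value per kilobase, 775515 ± 136008, followed by MT-CO3 at 710801 ± 98711, and these 2 did not differ beyond their spread. TRBV6-6, a variable segment of the beta chain, was sixth at 232165 ± 37294 per kilobase, within the spread of MT-CYB at 225365 ± 13304 and TMSB4X at 213274 ± 24818. TRBC2, the second constant region of the beta chain, had 150879 ± 17153 per kilobase, beside 174000 ± 9637 for EEF1A1 and 193917 ± 23413 for GAPDH. Both beta segments carry a caution, since reads of near-identical segments can be split.

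Long non-coding RNAs were present in 940 of 11978 cases (7.85%), and took 0.943% to 1.07% of the reads. NORAD, a cytoplasmic RNA that binds Pumilio proteins, had the highest value per kilobase, 13559.5 ± 957, with 76741, 66770 and 73671 in the 3 libraries. SNHG1, a host of small nucleolar RNAs, followed at 7196 ± 890.3 per kilobase and LCT-AS1 at 6926 ± 372, which did not differ beyond their spread. MIR142HG, the host of a haematopoietic microRNA, had 6123 ± 1144 per kilobase, with the second library lowest at 7804. The next 4 were further small nucleolar RNA hosts, from SNHG19 at 5883 ± 668 to SNHG3 at 4828 ± 422. LCT-AS1 and MIR142HG are annotated antisense, and without stated strand their reads cannot be told apart from those of a gene they overlap.

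The 5 genes that served to check the label were all present. NOTCH1 (ENSG00000148400), the receptor rearranged in this line, had 207364, 198895 and 186896 in the 3 libraries, a mean of 197719 ± 10285. NOTCH3 (ENSG00000074181), a second Notch receptor and itself a NOTCH1 target, had 59910.3, 59509 and 81302, the third library being the highest. PTCRA (ENSG00000171611), the surrogate alpha chain of the pre-receptor, had 3396, 4282 and 3152. CD1A (ENSG00000158477), the classical surface marker of cortical thymocytes, had 3974, 3801 and 4556, and RAG1 (ENSG00000166349), the catalytic subunit of the recombinase, had 4221, 3639.7 and 4804. Per kilobase NOTCH1 stood at percentile 99.3 of the 19266 protein-coding genes, NOTCH3 at 97.3, PTCRA at 92.0, CD1A at 86.7 and RAG1 at 66.3. Counting over exons does not separate the truncated NOTCH1 transcript from one made by the other allele.

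Genes of the T-cell receptor and its proximal signalling were present in 20 of 24 cases found, against 56.7% of protein-coding genes. Among the invariant chains CD3D had 87696, 115361 and 106994, CD3E had 58319, 76042 and 63230.5 and CD3G had 40899, 39052 and 38722. On the scale per kilobase the order was CD3D at 111249 ± 15272, CD3E at 23159 ± 3217, CD3G at 10312 ± 306 and CD247, the zeta chain, at 2672 ± 238, with each step larger than the spreads. The kinases that read the receptor were present throughout. ZAP70, which docks on phosphorylated zeta chains, reached 23647 ± 1963 per kilobase and exceeded LCK, the kinase that starts the cascade, at 15699 ± 921. FYN, a second kinase of that family, had 2506 ± 135. Of the adaptors and enzymes downstream, LCP2 had a mean of 12599.5 ± 1574, PLCG1, the phospholipase that raises calcium, 42794 ± 3144, and THEMIS, needed for thymocyte selection, 12532 ± 2873. The costimulatory receptor CD28 was present at 29041 ± 3296, while its inhibitory counterpart CTLA4 lay between at 51.8 ± 13.6. LAT, the scaffold that links ZAP70 to PLCG1, was low at 83.1, 54.0 and 66.3, with 49.7% of its annotated exon bases shared with 2 other genes, so its value is uncertain because strand-specific counting is not stated.

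**Figure D3:**
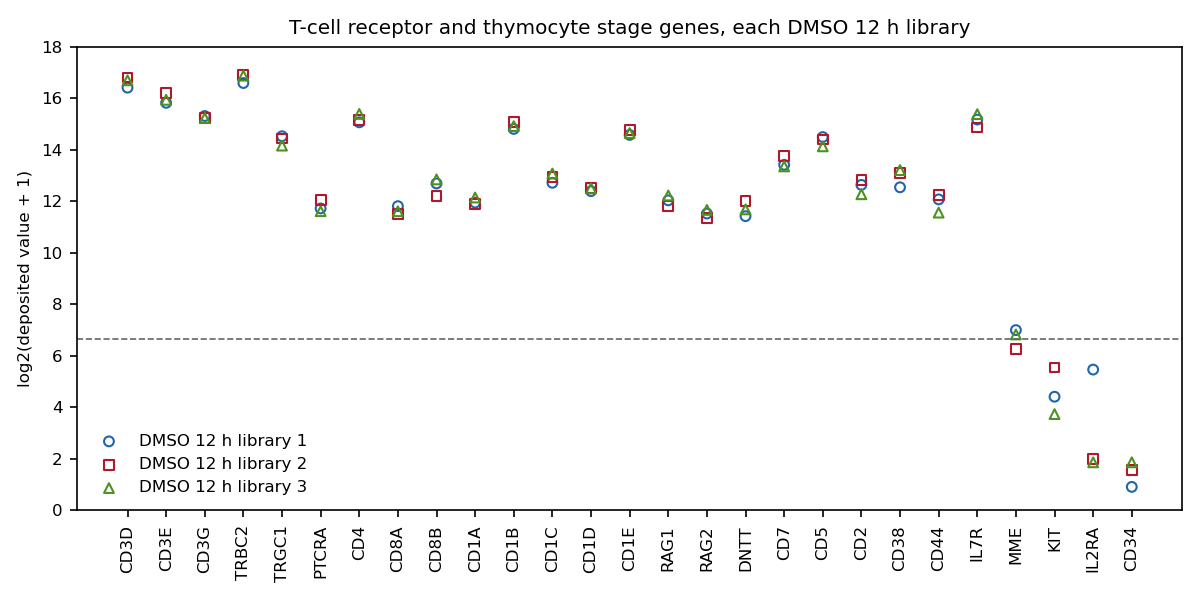
T-cell receptor and thymocyte stage genes in each DMSO 12 h library, as log2(deposited value + 1), with 1 symbol per library. The dashed line marks a value of 100. CD3D to IL7R lie above it in all 3 libraries, MME straddles it, and KIT, IL2RA and CD34 lie below it, with IL2RA higher in the first library (43.3) than in the other two (3.00 and 2.65).

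At the beta and gamma loci 1 variable segment held nearly all the value. TRBV6-6 had 73464, 99909 and 96868 and held 96.7% of the summed value of the 34 beta variable segments. TRBC2 had 99369, 122472 and 121258, against 2.65, 2.0 and 2.65 for TRBC1, although reads from these near-identical genes can be split between copies. Only 8 beta joining segments were matched, and the 6 present belonged to the second beta cluster, led by TRBJ2-7 at 1633 ± 126 and TRBJ2-6 at 988 ± 106. No level can be read for joining segments that were not matched, so the use of the first cluster was not tested. At the gamma locus TRGV2 held 98.4% of the variable segments' value, with 4888, 4643 and 3534, and TRGC1 held 97.9% of the constant regions' value, with 23714, 22258 and 18433. At the alpha locus 2 variable segments were high, TRAV1-1 at 12361, 10458 and 12193 and TRAV9-2 at 6315, 8397 and 6903, and the alpha constant region was not matched in the table. At the delta locus the 3 variable, 3 diversity and 4 joining segments and TRDC, the constant region, were all listed at 0. Receptor segments together took 0.225% to 0.253% of the reads, below the 0.267% to 0.425% of the other 9 libraries.

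Thymocyte stage genes were present in 27 of 31 cases, against 56.7% of protein-coding genes, and the levels covered both early and cortical genes. The 5 CD1 genes, a family of lipid antigen presentation, were led by CD1B at 28869.8, 34514 and 31117 and CD1E at 24597, 27809 and 25831. CD1B had 22581 ± 2037 per kilobase and CD1E 11838 ± 735, above CD1C at 5415 ± 666, CD1D at 2525 ± 107 and CD1A at 1961 ± 189. Both coreceptors were present, with CD4 at 34494, 36601 and 43237, CD8A at 3609.8, 2907 and 3146 and CD8B at 6659, 4711 and 7417. Per kilobase CD4 stood at 8316 ± 996, above CD8B at 3359.5 ± 749 and CD8A at 886 ± 98.3, with no overlap of spreads. The recombination genes RAG1, RAG2 at 2946 ± 322 and DNTT, the polymerase that adds untemplated bases at junctions, at 3407 ± 705, were all present, as was the cortical gene ARPP21 at 12439.5 ± 2200.1. Of the pan-T genes, CD7 had 11866 ± 1924, CD5, which scales with receptor signalling, 21014 ± 2647 and CD2 6236 ± 1186. Of genes linked to later maturation, CCR7, which guides cells to lymph nodes, had 818 ± 87.3 per kilobase, CD27 had 641 ± 28.5, and S1PR1, the exit receptor of the thymus, 31.0 ± 11.0. The progenitor genes lay between the thresholds. CD34 had 0.885, 2.0 and 2.65, KIT, the stem cell factor receptor, 20.3, 46.0 and 12.4, and IL2RA, a marker of early double-negative cells, 43.3, 3.00 and 2.65. CD99 was listed at 0 and lies in a pseudoautosomal region, where 13 of 18 protein-coding genes were listed at 0 in all 12 libraries, so no level can be read for it.

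Transcription factors of the T lineage were present in 32 of 40 cases, against 56.7% of protein-coding genes. TCF7, an effector of WNT signalling that opens the T-cell programme, had 149314, 143277 and 157811, and its partner LEF1 had 84510.4, 95880.5 and 109989. Per kilobase LEF1 (18055 ± 2381) and TCF7 (14919 ± 726) lay highest in the list, ahead of MYB at 10298 ± 431, SOX4 at 8445 ± 711, IKZF1, the founding Ikaros factor, at 7861 ± 436 and the E protein TCF3 at 7328 ± 329. The commitment factors were lower, with BCL11B at 2904 ± 105 and GATA3 at 2855 ± 472, which did not differ beyond their spread. Within the RUNX family RUNX3 had 2473 ± 527 and RUNX1 1130.0 ± 180.3, while RUNX2 stood near the threshold at 161, 72.9 and 97.2. The 3 ID genes listed encode inhibitors of E proteins and differed beyond their spreads, with ID3 at 3376 ± 241 per kilobase, ID1 at 693 ± 70.8 and ID2 at 47.0 ± 15.8. Factors of mature or effector fates differed in level. TBX21, of type 1 helper and cytotoxic cells, had 2.65, 5.99 and 3.54, FOXP3, of regulatory cells, 40.7, 31.0 and 45.1, and ZBTB16, of innate-like T cells, 15.9, 6.99 and 8.84. PRDM1 had 12.1 ± 4.41 and NFATC2 2.18 ± 0.709, although NFATC1, its paralogue, was present at 9469 ± 1237. EOMES, a T-box factor of memory and killer cells, was present at 326, 358 and 329.7. RORA, a nuclear receptor of type 17 helper and innate lymphoid cells, had 728, 449.6 and 482, and MAF, a factor of helper subsets, 713, 721 and 180.3. ZBTB7B, the factor of CD4 lineage choice, was present at 336, 229.8 and 343. SOX13 and GFI1B were absent, the latter while GFI1 had 11205 ± 1149.

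Of 36 T-ALL oncogenes 12 were present and 13 absent (36.1%, against 23.1% of protein-coding genes). Among the factors that define T-ALL classes 1 stood out. NKX2-5 (ENSG00000183072), a homeobox gene of heart development and an ectopic oncogene in some T-ALL, had 7855, 10099 and 11047, a mean of 9667 ± 1639 and percentile 95.1 per kilobase among protein-coding genes. The related genes were not at that level. TLX3 and NKX2-1 were listed at 0, TLX1 had 1.77, 0 and 0 and NKX2-2 0.885, 7.99 and 3.54. Of the bHLH and LIM genes TAL1 had 1.77, 8.99 and 6.19, LYL1 18.6, 9.99 and 10.6, LMO2 8.85, 31.0 and 2.65 and LMO1 0. HOXA9 and HOXA11 were listed at 0, HOXA10 had a mean of 0.884 and HOXA7 of 6.01. Other genes share 26.3% (HOXA10) to 62.5% (HOXA7) of the annotated exon bases of these HOXA genes. Their low values are therefore uncertain, because strand-specific counting is not stated. Counting all annotated members, none of 11 HOXA, 9 HOXC or 9 HOXD genes was present, while 2 of 10 HOXB genes were, HOXB3 at 810.2, 1058 and 834 and HOXB4 at 831, 1015 and 819. Of 14 NKX genes NKX2-5 was the 1 present. MEIS1, the HOX cofactor, was present at 287, 313 and 402. MEF2C, SPI1 and HHEX, genes of immature T-ALL, had means of 13.9, 0.333 and 2.10.

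The oncogenes of growth and survival ranged from high to absent. MYC had 25699, 29455 and 26307 and MYB 53875, 58344 and 57477, whereas MYCN lay between at 81.4, 45.0 and 61.0. The cyclins that pair with CDK4 and CDK6 differed in level. CCND3 had 71131, 54901 and 72718, CCND1 529, 522 and 370.4 and CCND2 0.885, 0 and 0, which per kilobase was 11418 ± 1699 for CCND3 and 98.1 ± 18.5 for CCND1. CDK6, the kinase partner, had 188729, 170381 and 189154, at percentile 99.0 per kilobase. BCL2 and BCL2L1, which block apoptosis, were both present, and per kilobase BCL2L1 (5646 ± 794) exceeded BCL2 (994 ± 147), although 43.0% of the exon bases of BCL2L1 are shared with another gene. TERT, the catalytic subunit of telomerase, was present at 2726, 2611 and 2851.

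Tumour suppressors known from T-ALL were present in 25 of 26 cases, against 56.7% of protein-coding genes. CDKN2A, whose locus is deleted in many T-ALL, was present at 1827, 1906 and 1944, while its neighbour CDKN2B was absent with 1 read in the first library. Per kilobase the cell cycle inhibitors ranged from CDKN1A at 109 ± 28.6 through CDKN2A at 437 ± 13.8 and CDKN1B at 3828 ± 433 to CDKN2C at 7102 ± 888. Of the Polycomb genes EZH2 had 24728, 25097 and 25092, SUZ12 20222, 21172 and 19554 and EED 4543, 5133 and 5416. FBXW7, which targets NOTCH1 and MYC for degradation, had 3615, 4422 and 3807. All 22 genes of JAK, STAT, RAS, PI3K and PIM signalling were present. Within them AKT1 (2486 ± 55.7 per kilobase) exceeded AKT2 (1287 ± 58.6), NRAS (4093 ± 282) exceeded HRAS (1216 ± 129), and STAT5B (1738 ± 322) exceeded STAT5A (177 ± 71.2). RNA levels say nothing of mutations in these genes.

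The Notch pathway was uneven across its roles. Of the receptors NOTCH2 was present at 4463, 5212 and 5679 and NOTCH4 lay between at 84.0, 65.9 and 97.2. Per kilobase NOTCH1 had 19054 ± 991, NOTCH3 7122 ± 1327, NOTCH2 305 ± 36.5 and NOTCH4 8.45 ± 1.61, each step larger than the spreads. The ligands were low, DLL1 at 64.6, 175 and 72.5, JAG1 at 60.1, 88.9 and 76.9, DLL3 at 42.5, 93.9 and 60.1, DLL4 at 4.42, 3.00 and 0 and JAG2 at 0.885, 2.0 and 0.884. The Fringe enzymes, which add sugar to the receptors and alter their choice of ligand, were MFNG at 3669.8 ± 946, RFNG at 1746 ± 62.5 and LFNG at 45.8 ± 14.5. Of the gamma-secretase subunits PSEN2, a catalytic one, had 2.65, 0 and 0.884. NCSTN and APH1A, structural subunits, had 7647 ± 232 and 13065 ± 495, and ADAM10, the protease that cuts the receptor first, 17719 ± 892. In the nuclear complex RBPJ, the DNA-binding partner, had 9128 ± 906, and the coactivators were MAML1 at 11511, 11346 and 11726, MAML3 at 588, 711 and 524 and MAML2 at 8.85, 11.0 and 7.96.

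Of 16 NOTCH1 target genes 14 were present and none absent, against 56.7% and 23.1% of protein-coding genes. Per kilobase NRARP, a feedback inhibitor, led with 23928 ± 3619.8, followed by HES4, the pathway ligase DTX1 at 19335 ± 2065 and NOTCH1 itself, whose spreads overlapped. The HES and HEY repressors differed among themselves. Per kilobase HES4 had 21880.3 ± 3225, HES1 2262 ± 126, HES5 771 ± 204, HEY1 56.2 ± 13.7, HEY2 23.3 ± 11.4 and HEYL 5.66 ± 1.12. IL7R had 37141, 29931 and 42995, CR2, a complement receptor better known from B cells, 21610.3, 44029 and 37284, and IGF1R 21432, 19928 and 19772. The core of the RBPJ site, TGGGAA on either strand (TTCCCA when read from the other strand), occurred in 5 of the 13 target promoters in the RefSeq table, those of HES1, HES4, HES5, HEY2 and HEYL, against 22.4% of 15004 protein-coding promoters of the same length. Among the present targets it was 3 of 11 promoters (27.3%), close to the share of all promoters. The promoters of HEY2 and HEYL, which lay between the thresholds, held 2 copies each, and that of HES4 held 1. The promoters of HES5 (chr1:2530214-2530513, minus strand) and HES1 (chr3:194135898-194136197, plus strand) are shown with the core in capitals because both genes were present and each promoter holds 2 copies, at positions 27 and 171 and at positions 167 and 181, counted from 1 at the 5′ end of the window. In HES5 the 2 copies lie on opposite strands, and in HES1 on the same strand. A match of letters is not evidence of binding.
HES5: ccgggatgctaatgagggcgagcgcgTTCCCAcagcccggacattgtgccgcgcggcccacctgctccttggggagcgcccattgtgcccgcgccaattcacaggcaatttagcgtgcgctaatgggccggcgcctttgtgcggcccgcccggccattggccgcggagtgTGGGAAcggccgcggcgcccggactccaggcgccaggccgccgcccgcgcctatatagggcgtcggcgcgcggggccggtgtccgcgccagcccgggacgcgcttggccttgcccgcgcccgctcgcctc
HES1: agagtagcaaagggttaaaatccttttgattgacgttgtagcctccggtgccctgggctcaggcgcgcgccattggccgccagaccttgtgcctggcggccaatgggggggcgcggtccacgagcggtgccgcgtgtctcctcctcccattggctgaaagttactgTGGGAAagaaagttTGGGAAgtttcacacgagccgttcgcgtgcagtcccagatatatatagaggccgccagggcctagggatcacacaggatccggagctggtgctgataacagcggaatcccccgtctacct

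Cytokine receptors were present in 18 of 31 cases (58.1%), close to the 56.7% of protein-coding genes, so the count lies near the background. The 31 include IL9R, CSF2RA and CRLF2, whose level cannot be read, so the share among readable receptors is higher. IL2RG, the common gamma chain, had 47812, 55953 and 57371, with 50.8% of its exon bases shared with another gene, and its partner IL7R was also high. Per kilobase IL2RG had 19461 ± 1869 and IL7R 6054 ± 1079.9, above the partner chains IL2RB at 561 ± 46.0, IL4R at 302 ± 119 and IL21R at 16.8 ± 2.24. Interferon receptor chains were present, IFNAR1 at 7773 ± 319.9 and IFNGR1 at 1222 ± 108, as were both TGF-beta receptors, TGFBR1 at 5803 ± 430.2 and TGFBR2 at 4035 ± 419.7. IGF1R had 20378 ± 917, while the insulin receptor INSR had 4.42, 8.99 and 4.42. Of the receptors of myeloid growth factors, CSF3R (mean 0.295) and CSF2RB (0) were absent and CSF1R lay between the thresholds at 4.42, 2.0 and 7.07. FLT3, of early progenitors, had 0, 3.00 and 3.54. EPOR, the erythropoietin receptor, was present at 1175, 1103 and 953. IL9R, CSF2RA and CRLF2 were listed at 0 but are pseudoautosomal, so no level can be read.

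Of 19 chemokine receptors 7 were present (36.8%), against 56.7% of protein-coding genes. CXCR4, which holds precursors in marrow and thymus, had 42202, 43065 and 45778, and CCR9, the receptor for the thymic chemokine CCL25, had 12372, 15975 and 13433. Per kilobase CXCR4 stood at 19641 ± 839, CCR9 at 4958 ± 659, CCR7 at 818 ± 87.3 and ACKR3 at 358 ± 42.2. Receptors of effector and memory T cells differed in level. CCR4 at 7.96, 5.0 and 7.07 and CXCR3 at 55.7, 11.0 and 27.4 were low, while CXCR6 and CX3CR1 were present at 515 ± 124 and 506 ± 73.4.

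Markers of other lineages were mostly low, with exceptions in each of 3 lists. None of 12 erythroid or megakaryocytic and none of 12 non-haematopoietic markers was present, HBB, EPCAM and PECAM1 being listed at 0. Of 12 B-cell markers 2 were present, CD79A, a signalling chain of the B-cell receptor, at 1867, 2511 and 659 and IGLL1, a surrogate light chain, at 190.2, 347 and 137. PAX5, the B-lineage master factor, MS4A1 and CD22 were listed at 0. Of 12 killer-cell markers 3 were present, NKG7, a granule membrane protein, at 5394, 3365 and 2538, PRF1, the pore protein perforin, at 483, 244 and 328 and KLRD1 at 372, 401 and 245. GZMB had 1 read in each library and GZMK none. Of 12 myeloid markers 1 was present, ITGAM at 490.0, 358 and 479, while CEBPA, S100A8, ELANE and CD33 were listed at 0. CEBPA shares 43.4% of its annotated exon bases with 2 other genes, so its value is uncertain without stated strand. Summed over each list, the B-cell markers had 839 to 2897 against 917 to 3204 in the other 9 libraries, the killer-cell markers 3235 to 6477 against 3074 to 6693 and the myeloid markers 403 to 559 against 224 to 464. Whether the present ones came from the leukaemia cells or from others was not tested. All 12 proliferation genes were present, with per-kilobase means from 1385 ± 29.01 for BIRC5 to 69734 ± 6261 for PCNA, the sliding clamp of DNA replication.

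The 3 libraries were alike for most genes. Over the 12628 present genes the median SD of log2(value + 1) was 0.134, where counting error alone would give a median of 0.0248, and 9 genes had an SD of at least 1. The spread was larger at low levels, with medians of 0.223 between 100 and 1000, 0.118 between 1000 and 10000 and 0.105 above. Pairs of libraries correlated at 0.991 to 0.993 (Pearson, across genes, which are not independent replicates), and 102 to 161 genes differed by 2-fold or more in a pair. Of the 200 most variable genes the second library stood apart on the high side for 66 and the third on the low side for 44, whereas the first stood apart 27 times in either direction.

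The 12 genes of largest spread included factors and surface proteins. The largest SD belonged to ENSG00000184779, an identifier with no symbol in the tables used, at 0, 388 and 2.65, and in the other 9 libraries it did not exceed 1.27. Only the second DMSO 12 h library held reads in number. ASS1, which makes argininosuccinate in arginine synthesis, had 2683, 674 and 192, the first library being far above the third. MAF, a leucine zipper factor, had 713, 721 and 180.3, with the third library low. CD79A (1867, 2511 and 659) and HLA-DQA1 (95.5, 183 and 38.0), a class II chain whose reads may be split between near-identical alleles and genes, were also lowest in the third library. ATP2B2, a calcium pump, was lowest there too at 608, 401 and 158. In contrast GPR157 (83.1, 315 and 299), RGMB (59.3, 235 and 152), FGFRL1 (136, 537 and 288) and WNT3 (109.7, 405 and 301) were lowest in the first library. APOBEC3B, a cytidine deaminase with close paralogues, was highest there at 243, 96.9 and 58.3.

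Several of these patterns recurred in the libraries labelled DMSO 48 h with the same replicate number. MAF had 746, 695 and 181 there, CD79A 2001, 3042 and 802 and ASS1 2231, 449 and 236. In libraries 1 to 3 labelled GSI 12 h MAF had 748, 630.1 and 692 and CD79A 847, 1088 and 916, without that pattern. Over the 200 most variable genes the deviations of each DMSO 12 h library from its group mean correlated with those of the same-numbered DMSO 48 h library at 0.777, 0.733, 0.907 for libraries 1, 2 and 3. With GSI 12 h the values were 0.0913, 0.376, −0.0517, and with GSI 48 h 0.151, 0.326, 0.0647. These genes were chosen for their spread in DMSO 12 h, and deviations within a group of 3 sum to 0, so the values are descriptions.

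**Figure D4:**
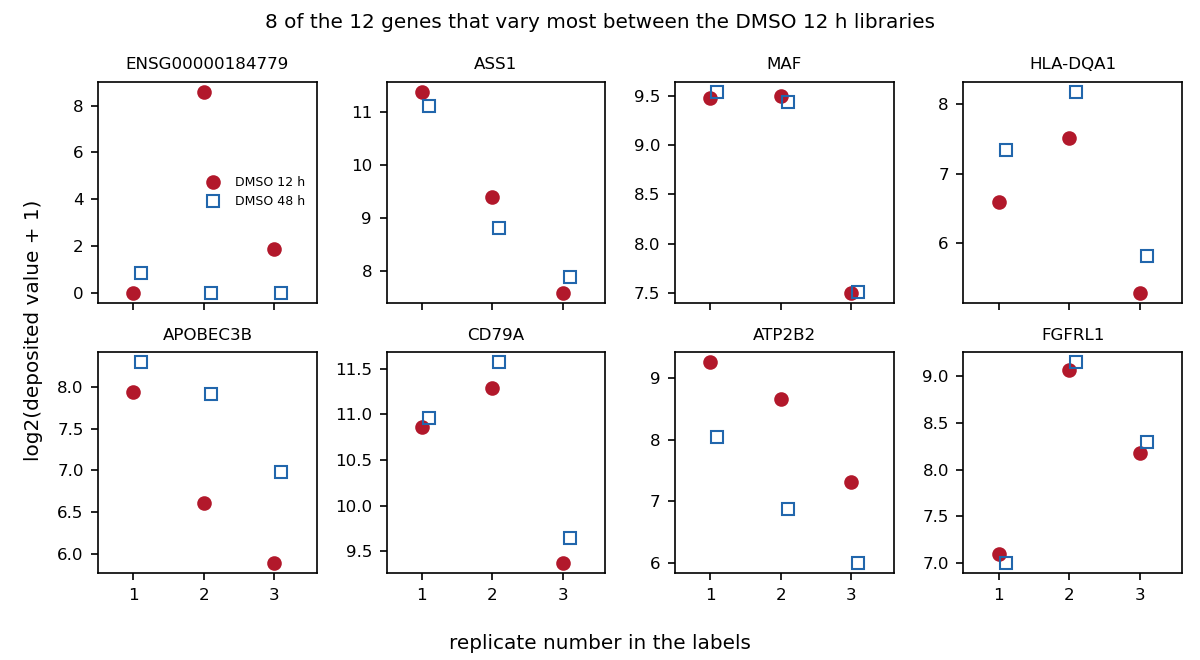
The plot shows 8 of the 12 most variable genes, as log2(deposited value + 1) against replicate number, for DMSO 12 h (filled circles) and DMSO 48 h (open squares), with a separate vertical scale in each panel that need not start at 0. MAF and FGFRL1 have nearly the same values under both labels in each numbered pair, and CD79A keeps the same order of libraries. ENSG00000184779 is high in the second DMSO 12 h library only.

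To show where the solvent state at 12 h differed from the rest of the series, the group was set against the mean of the other 3 group means with limma on log2(value + 1) over 19281 genes, with Benjamini-Hochberg adjustment. The contrast joins differences of treatment and time, which it cannot tell apart. Deviations of same-numbered libraries correlated between DMSO 12 h and DMSO 48 h, and between the libraries labelled GSI 12 h and GSI 48 h. Across these pairs of groups the same-numbered correlations were lower, at most 0.272. Any difference between the pairs also enters the contrast, and its source was not tested. The contrast does not depend on which libraries the labels GSI 12 h and DMSO 48 h belong to. In bulk RNA fewer cells of a type and less RNA per cell cannot be told apart. At an adjusted p under 0.05, 5058 genes (26.2%) were called, 2727 higher (14.1%) and 2331 lower (12.1%). Without the second DMSO 12 h library 2302 were called, 1183 higher and 1119 lower. Under upper-quartile scaling the split was 3579 higher and 1832 lower. The groups did not overlap for 1331 genes above (6.9%) and 905 below (4.69%) the other 9 libraries.

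NOTCH1 targets were higher in DMSO 12 h for 14 of 16 genes and lower for none, against 14.1% and 12.1% of all genes tested. Their median difference was 1.22 (log2) against −0.0034 over all genes tested. Of the 16, 7 lay above all 9 other libraries, against 6.9% of all genes tested. The list is of known targets and was chosen with results of these data known, so its direction is not independent evidence. NRARP had 36766, 49346 and 40943 against 1333 to 25383 in the other 9, a difference of 3.14 ± 0.16 (SE, limma adjusted p = 2.59e-07). DTX1 had 76829, 94663 and 82974 against 7426 to 70586, a difference of 2.24 ± 0.11 (adjusted p = 2.59e-07). Both groups of values were separate, and in each gene the nearest of the other libraries were those labelled GSI 12 h. HEY1 had 135, 224 and 186 against 2.55 to 116 (2.99 ± 0.39, adjusted p = 0.000284), and MYC 25699, 29455 and 26307 against 8179.6 to 22428 (1.05 ± 0.10, adjusted p = 4.40e-05). HES5, HES4, HEY2, PTCRA, NOTCH3, CR2, SHQ1 and IGF1R were also called, with differences from 0.37 for IGF1R to 2.01 for HEY2. The calls for HES1 (0.50, adjusted p = 0.0283) and NOTCH1 (0.33, adjusted p = 0.0158) were lost when single DMSO 12 h libraries were left out. For HES1 the adjusted p was 0.0809 without the first, 0.119 without the second and 0.0562 without the third, and for NOTCH1 0.0677 without the first and 0.072 without the second. IL7R (0.20 ± 0.15) and HEYL (0.09 ± 0.31) did not pass the test.

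**Figure D5:**
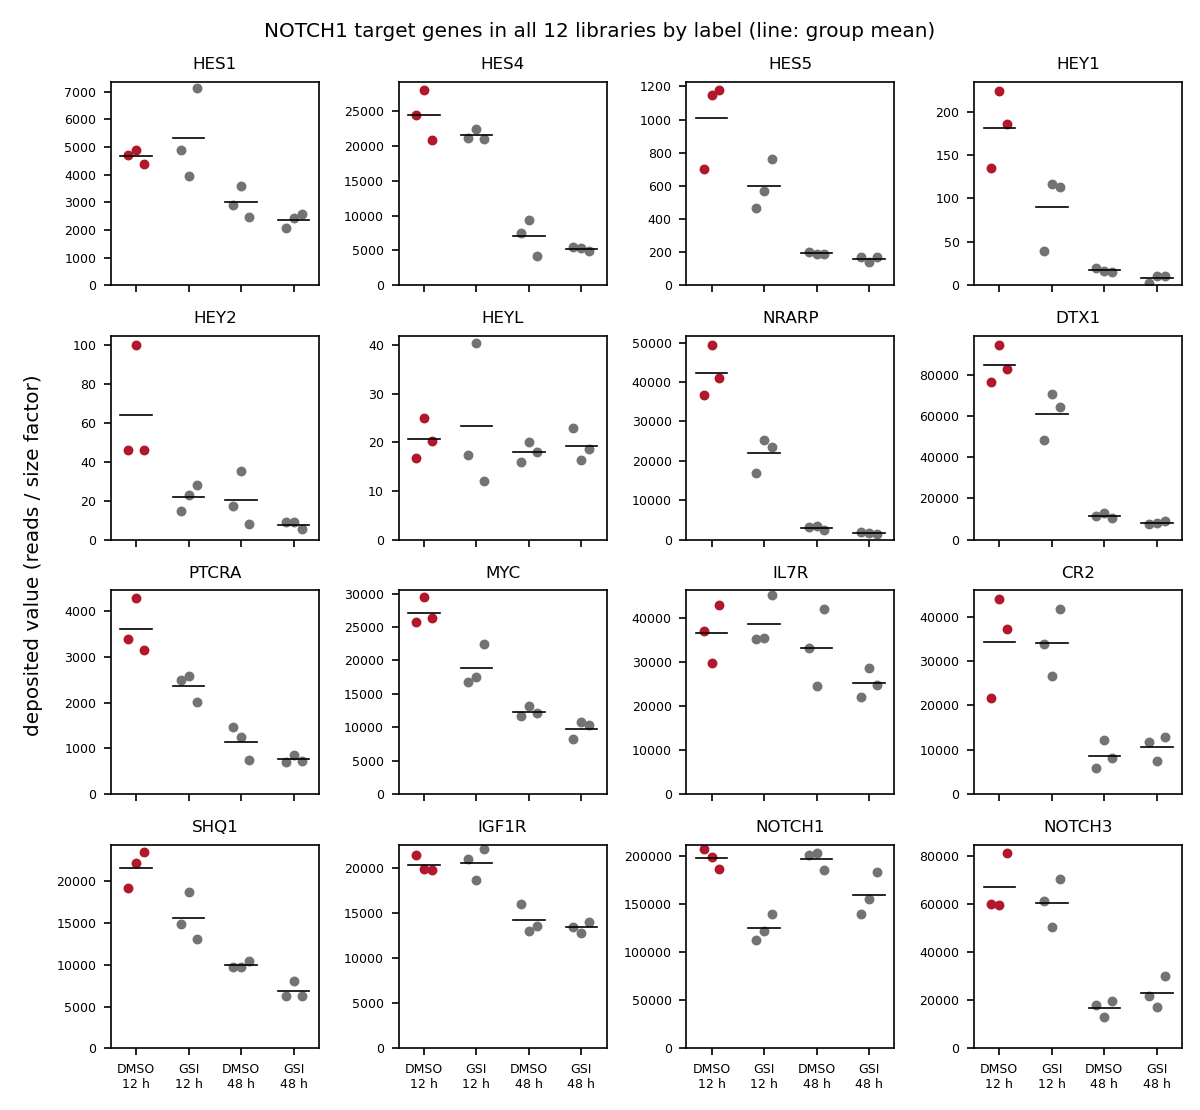
Deposited values of the 16 NOTCH1 target genes in all 12 libraries by label, with DMSO 12 h in red, the rest in grey and a line at each group mean; each vertical axis starts at 0. In DTX1 the DMSO 12 h libraries lie above all others, in IGF1R they overlap those labelled GSI 12 h, and in HEYL all 4 groups overlap.

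The largest rises that did not overlap the other 9 libraries included ALDH3B2, EXD3, ACY3, CPA4 and NRARP. ALDH3B2, an aldehyde dehydrogenase, had 798, 1108 and 863 against 6.65 to 626 (3.86 ± 0.34, adjusted p = 3.18e-05). EXD3, of the exonuclease domain family, had 7963, 12841 and 8827 against 221 to 5849.7 (3.70 ± 0.19, adjusted p = 2.59e-07). CPA4, a carboxypeptidase, had 291, 604 and 308 against 7.64 to 223, and ACY3, an aminoacylase, 83.1, 123 and 99.0 against 0 to 65.8. For all 5 the nearest group mean was that of the libraries labelled GSI 12 h.

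The 6 largest falls were LSP1, PPFIA4, ENSG00000184682, BNIP3, ADM2 and TCP11L2. BNIP3, a mitochondrial protein of mitophagy induced when oxygen is short, had 405, 384 and 473 against 936 to 11539 (−3.08 ± 0.45, adjusted p = 0.000555). PPFIA4, of the liprin family, had 79.6, 76.9 and 58.3 against 85.1 to 6049 (−3.24 ± 0.60, adjusted p = 0.00221). LSP1, a leukocyte actin-binding protein, had 10.6, 0 and 4.42 against 12.3 to 300.4. ENSG00000184682, with no symbol in the tables used, had 16.8, 3.00 and 11.5 against 27.3 to 312, and TCP11L2 30.1, 40.96 and 36.2 against 50.8 to 418. For all 6 falls the nearest group mean was that of the libraries labelled DMSO 48 h, with 1071, 936 and 1499 for BNIP3 and 100, 85.1 and 85.3 for PPFIA4. ADM2 (−2.09, adjusted p = 0.00925) lost its call without the second DMSO 12 h library (adjusted p = 0.054).

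Among T-lineage factors 14 of 35 tested were lower and 6 higher, against 12.1% lower and 14.1% higher over all genes tested, with a median of −0.19. TOX2 and TOX, factors of thymocyte selection, had 6834, 7046 and 4752 and 13479.6, 10192 and 13278 against 7362 to 29022 and 15453 to 33483 in the other 9, differences of −1.21 ± 0.16 and −0.92 ± 0.11 (limma adjusted p = 0.000307 and 0.000139), with no overlap. IKZF2 and FLI1 also lay below all other libraries, with −0.68 and −0.42, and GATA3 (−0.66), RORA (−1.36), BACH2 (−0.71) and ZBTB16 (−1.83) were called lower with overlap. Of the 14, 5 lost the call without the second DMSO 12 h library (ID3, RUNX2, IKZF3, SATB1 and ZBTB7B, adjusted p 0.0569 to 0.127). Of the 6 higher, TCF3, RUNX3, ETS2, EOMES and MYB lost it in that setting (0.0649 to 0.155) and ID1 (1.04 ± 0.24) did not.

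Of 15 chemokine receptors tested 5 were lower and 2 higher, against 12.1% and 14.1% of all genes, so the higher count lies at the background. CCR4 had 7.96, 5.0 and 7.07 in DMSO 12 h, 10.7, 6.33 and 28.2 in the libraries labelled GSI 12 h, 45.2, 57.2 and 60.6 in DMSO 48 h and 381, 232 and 233 in GSI 48 h (−2.96 ± 0.34, limma adjusted p = 0.000139). CCR2 (−2.85 ± 0.27), a receptor of monocytes and effector T cells, was lower as well, as were CCR9 (−0.89 ± 0.21) and CCR7 (−0.59 ± 0.11). ACKR3, a scavenging receptor for CXCL12, had 703, 835 and 888 against 128 to 1140.4 and was higher by 1.44 ± 0.22, and CX3CR1 by 0.92 ± 0.15. The ranges overlapped in all 7.

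Of the T-cell receptor list 4 of 22 were higher and 4 lower, against 14.1% and 12.1% of all genes, so both counts lie near the background. Without the second DMSO 12 h library 1 of the higher and 2 of the lower calls were lost. CD3G (40899, 39052 and 38722 against 24136 to 33379) and PTCRA were higher without overlap, and PTPRC, the phosphatase CD45, was lower at 27356, 20643 and 21521 against 34642 to 57388 (−0.97 ± 0.08, limma adjusted p = 2.20e-05), as was THEMIS (−0.96 ± 0.20). ZAP70 was higher by 0.56 ± 0.09 with overlap. CD3D (0.43), LCP2 (−0.26) and PLCG1 (−0.32) lost their calls without the second DMSO 12 h library, with adjusted p of 0.0871, 0.228 and 0.0562. Of the thymocyte stage list 4 of 29 tested were higher and 6 lower, against 14.1% and 12.1% of all genes, so the higher count lies at the background. Without the second DMSO 12 h library 1 of the higher and 3 of the lower calls of this list were lost. Within it TFRC, the transferrin receptor, was higher at 77159, 91881 and 68685 against 27235 to 60664 (0.92 ± 0.13). CD69, an early activation marker, was lower at 5700.0, 5102 and 3908 against 5932 to 14412 (−0.79 ± 0.17). NKX2-5 was higher by 0.93 ± 0.14, with 3130.0 to 8426 in the other 9, and CCND1 by 1.85 ± 0.20 without overlap. None of the 12 proliferation genes was called, against 26.2% of all genes.

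Of 17 oncogenes tested 8 were higher and 3 lower, against 14.1% and 12.1% of all genes, and 5 of the 8 and all 3 of the lower lost the call without the second DMSO 12 h library. Of the Notch receptors, ligands and Fringe genes 5 of 10 were higher and 0 lower, against 14.1% and 12.1% of all genes, with 4 of the 5 lost in that setting (adjusted p up to 0.316). Of the Notch machinery 3 of 14 were lower, against 12.1% of all genes. MAML2 at 8.85, 11.0 and 7.96 against 15.9 to 96.7 (−2.01 ± 0.30, limma adjusted p = 0.000649) was the 1 that held in all alternatives. Cytokine receptors were lower in 7 of 23 cases and higher in 3, against 12.1% and 14.1% of all genes, so the higher count lies at the background. Of the 7, IL2RB, IL10RA and IL21R lost the call without the third DMSO 12 h library (adjusted p 0.0715, 0.108 and 0.21), and the other 4 held in all alternatives. IL15RA (1.60 ± 0.34) and IL18R1 (1.34 ± 0.19) were higher with overlap, and IL6ST, the shared chain of the interleukin 6 family, was lower at 479, 489.6 and 459 against 579 to 800.4 (−0.52 ± 0.11). Of the signalling genes 5 of 22 were lower and 2 higher, with the same shares of all genes as background. Without the first DMSO 12 h library JAK1, PIK3CA and PIK3CD of the 5 lost the call, as did HRAS of the 2 (adjusted p 0.0709, 0.0887, 0.0611 and 0.0688). The call held in all alternatives for PIM1, a survival kinase, which lay below all 9 other libraries (−0.76 ± 0.12), and for its paralogue PIM3, which lay above them (0.50 ± 0.10). PRF1 (−0.94 ± 0.17) and KLRB1 (−1.61 ± 0.30) were the 2 lower killer-cell markers of 8 tested, against 12.1% of all genes. IGLL1 (2.77 ± 0.55) was the 1 higher B-cell marker of 5, against 14.1% of all genes.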

How the data were processed

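The authors deposited a table of normalised signal for 12 libraries, in which each gene's reads were divided by the library's size factor. The submitters' processing notes name the build hg19 with TopHat2 (2.0.10), HTSeq (0.6.1), DESeq2 and FastQC (0.10.1). Settings, annotation and strand handling were not given in the sources used here. Whole reads were recovered from the steps of the values (100% whole within 0.01). Symbols were matched for 39007 identifiers, and union exon lengths for 50409 from GENCODE 29, which is later than hg19. Promoters came from RefSeq. Levels are means of the deposited values over the DMSO 12 h libraries. The comparison used limma (3.58.1, R 4.3.3, trended variance) on log2(value + 1) with Benjamini-Hochberg adjustment, over genes that reached 10 in 3 or more libraries. All 12 libraries entered the fit, without a replicate term. This scale understates changes of low genes. The fit was tested on simulated data. Alternatives were edgeR (4.0.16), which called 5011 genes on recovered reads, DESeq2 (1.42.0), other filters, pseudocounts and scaling, and libraries left out. Some genes of the lists are not reported here. The members, the 18 gene lists and the contrast were chosen with earlier results of these data known. Genes were named by a rule: the 15 highest by value and per kilobase, list members by class and call, the 12 of largest SD with a mean of 100 or more, and the 6 largest non-overlapping differences each way whose higher side averaged 100 or more.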

Additional observations from a re-analysis of the deposited data

How the results depend on the processing

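Counts of present and absent genes, and the median SD between libraries, stayed within 1.5 times the reported values in all alternatives: without each DMSO 12 h library in turn, 12580 to 12633 genes were present and 37302 to 37831 absent, and the median SD was 0.103 to 0.124; per kilobase, 10934 were present. For the comparison with the other groups, leaving out any 1 of the 12 libraries gave 2302 to 5979 called genes, 1183 to 3205 higher and 1119 to 2774 lower, with each lowest value (2302, 1183 and 1119) from leaving out the second DMSO 12 h library; the cause was not tested. edgeR called 5011 and DESeq2 5714. Upper-quartile scaling gave 3579 higher and 1832 lower, a shift of the higher share from 53.9% to 66.1%. Of 2195 values of the 110 named genes under 20 alternatives, 2019 kept direction and call, 176 kept direction only and 0 reversed; 41 of those lost calls came without the second DMSO 12 h library. With the replicate number as a block in the fit, 7485 genes were called (4026 higher and 3459 lower) and no named gene lost its call. The numbers paired DMSO 12 h with DMSO 48 h libraries, with correlations of deviations of 0.545 to 0.612 over 19281 genes. They also paired the libraries labelled GSI 12 h with those labelled GSI 48 h, at 0.400333 to 0.544876. They did not pair all groups, since same-numbered DMSO 12 h and GSI 12 h libraries gave 0.0676 to 0.272. The block is therefore reported here only. Depth limits genes near a mean of 1, which rest on about 3 reads.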

Other observations

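The genes beside NKX2-5 in the RefSeq order did not share its level in a uniform way. BNIP1, next on one side, had 1498, 1812 and 1773, and STC2, next on the other, had 0.885, 0.999 and 0. Beyond STC2, BOD1 had 3619, 4119 and 3941 and CPEB4 769.6, 755 and 712, and C5orf47 was listed at 0. Beyond BNIP1, CREBRF had 1027, 1018 and 752, ATP6V0E1 6851, 7956 and 7363 and RPL26L1 3544, 3791 and 4356. These neighbours were chosen after the level of NKX2-5 was seen.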
